A study of Mus musculus with 4 samples.

Results

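Lung epithelial transcripts were followed in cells that alveolar lavage recovered from TREM2-/- and WT mice. They comprised 37 genes that mark alveolar type 2 (AT2) cells, alveolar type 1 (AT1) cells, epithelial junctions and keratins, airway secretory cells or ciliated cells, and were chosen by gene symbol, each as the probe set that the annotation of the array gives that 1 symbol (for *Etv5*, with 2 such probe sets, the brighter one). All 37 were measured, among 19946 genes in all. The TREM2-/- group had 2 arrays of mice lacking *Trem2*, backcrossed 10 times to C57/Blk6, and the WT group had 2 arrays of wild type C57/Blk6 mice. All mice were 8-10 weeks old and untreated, and every array carried RNA of alveolar macrophages (AM) from pooled mice. According to the methods, WT mice were bought and both lines were bred in 1 facility, and littermates are not mentioned. How many mice formed a pool is not stated, nor whether the pools of a genotype held separate mice, so the p-values below reflect only how far these arrays lay apart within a genotype, a spread that may be technical.

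The lung epithelium is divided by task. Flat AT1 cells form the surface for gas exchange, AT2 cells make surfactant and renew the AT1 layer, club and goblet cells secrete protective proteins into the airway lining, and ciliated cells move it. AM lie on the alveolar surface, take up spent surfactant and dead cells, and are flushed out by lavage together with whatever epithelial cells or debris come loose. No sort of the cells was described for these RNAs.

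The values are log2 signals from the robust multi-array average (RMA), a difference is the mean of the TREM2-/- arrays minus that of the WT arrays, and a gene passed where the adjusted p of limma over all 19946 genes was below 0.05. *Trem2* itself was lower, at 7.64 and 7.45 on the TREM2-/- arrays against 9.58 and 9.74 on the WT arrays (difference −2.11, standard error 0.10, adjusted p = 0.0009 from limma). Of the markers of the labelled cell type, *Itgax*, *Chil3*, *Marco*, *Siglecf* and *Pparg* lay between 10.15 and 12.88 on every array. The middle of the signals of an array was 5.84 to 5.86 and its lower quartile 4.39 to 4.40, and a signal near or below that quartile may be background of the array, since no detection call was at hand. Of 17 AM markers measured, 16 lay above the middle on all 4 arrays. Not all were bright: on the WT arrays *Car4* had 5.81 and 6.10 and *Fabp1* 6.91 and 6.95.

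Of the 37 epithelial transcripts, 4 rose in TREM2-/- AM and none fell, and the other 33 missed the threshold. This is a share of 10.8% higher, where 0.431% of all genes were higher and 0.135% lower. The 4 genes were *Cldn18*, *Krt7*, *Scgb1a1* and *Gprc5a*, which fall in different groups of the members, here called subtypes. The junction and keratin groups are classes of protein rather than cell types, so the 4 genes need not stem from different cells. No gene of the AT2 and surfactant group or of the ciliated group was among them. At an unadjusted p below 0.05, 16 members were higher (43.2%, against 4.64% of all genes) and 3 lower (8.11%, against 6.9%). Both TREM2-/- arrays lay above both WT arrays for 20 members (54.1%, against 17.4% of all genes) and below them for 8 (21.6%, against 25.4%). The median difference was 0.15 over the members and −0.02 over all genes. A share of members is given as a description, since they were named with earlier results of these arrays known. In such bulk RNA, more or fewer cells of a type cannot be told apart from more or less RNA per cell.

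**Figure D1:**
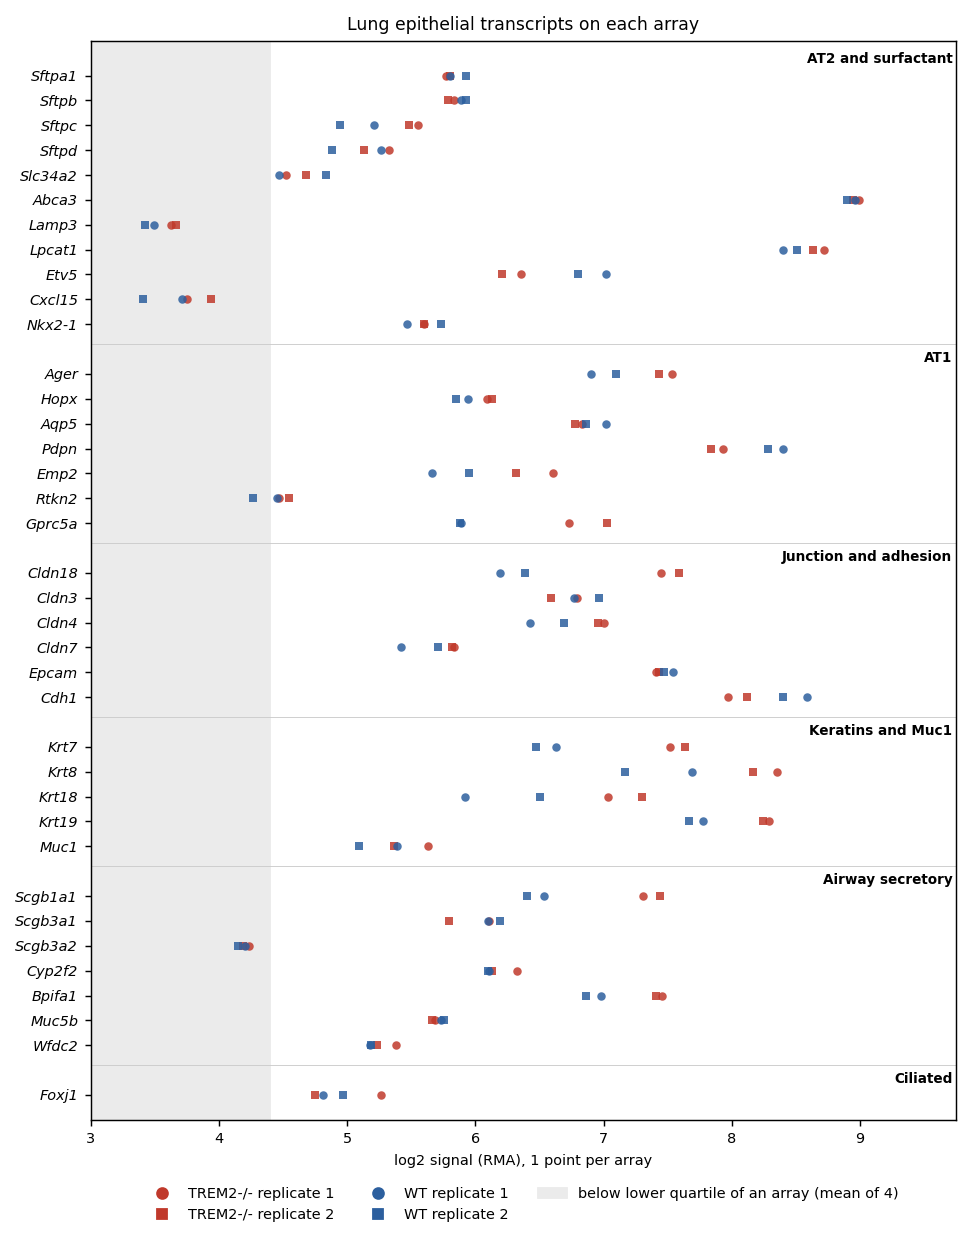
Log2 signal (horizontal axis) of each of the 37 epithelial transcripts on each array, grouped by subtype. Red points are TREM2-/- arrays and blue points WT arrays, circles replicate 1 and squares replicate 2, and the grey band lies below the lower quartile of an array. For *Cldn18*, *Krt7*, *Scgb1a1* and *Gprc5a* the TREM2-/- points stand apart to the right, whereas those of *Sftpa1*, *Sftpb* and *Nkx2-1* lie close to or among the WT points.

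*Cldn18*, a claudin that seals tight junctions between alveolar epithelial cells, had signals of 7.45 and 7.59 on the TREM2-/- arrays against 6.19 and 6.39 on the WT arrays. The genotypes did not overlap, and the gap between them was wider than the spread within either. The difference was 1.23 (standard error 0.10, 95% interval 0.99 to 1.47, adjusted p = 0.0083 from limma), which is 2.35-fold in TREM2-/- over WT AM. Without TREM2-/- replicate 2 the adjusted p was 0.069 in limma, whereas the gene passed with any other array left out.

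*Krt7*, a type II keratin of simple epithelia, had signals of 7.51 and 7.64 in TREM2-/- AM and 6.63 and 6.47 in WT AM. Its difference was 1.02 (standard error 0.09, 95% interval 0.81 to 1.24, adjusted p = 0.012 from limma), a 2.03-fold higher signal. *Scgb1a1*, the secretoglobin that club cells release into the airway, had signals of 7.31 and 7.44 in TREM2-/- AM and 6.53 and 6.40 in WT AM. Its difference was 0.91 (standard error 0.09, 95% interval 0.70 to 1.12, adjusted p = 0.015 from limma), a 1.88-fold higher signal. *Gprc5a*, an orphan receptor abundant in AT1 cells, had signals of 6.73 and 7.03 in TREM2-/- AM and 5.89 and 5.88 in WT AM. Its difference was 1.00 (standard error 0.11, 95% interval 0.73 to 1.26, adjusted p = 0.024 from limma), a 1.99-fold higher signal. None of the 3 genes had overlapping arrays, but their calls depended on single arrays. With 1 array left out *Krt7* passed only without WT replicate 1 and *Gprc5a* only without TREM2-/- replicate 1, and *Scgb1a1* passed in none of the 4 fits (adjusted p 0.054 to 0.12 from limma). The count of higher members was 2 without TREM2-/- replicate 1, 0 without TREM2-/- replicate 2, 2 without WT replicate 1 and 1 without WT replicate 2, all by limma. With all 35557 rows tested as probe sets, none of the 4 genes passed, with adjusted p of 0.15 for *Cldn18*, 0.17 for *Krt7*, 0.19 for *Scgb1a1* and 0.25 for *Gprc5a* from limma.

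Sequences before the transcription start are printed for 2 genes that rose, *Cldn18* and *Krt7*, and for 2 surfactant genes that did not pass, *Sftpa1* and *Sftpb*. These are examples and do not stand for the other members that passed or did not pass. RefSeq promoter windows (build GRCm38.p6) matched 27 of the 37 members, 2 of the 4 that rose among them. *Cldn18* has 2 annotated starts (first exons used in different tissues, lung and stomach), which its single probe set cannot tell apart. Each run holds the 250 bases before a start, 5′ to 3′ on the strand of the gene, and capitals mark the core of the sites bound by NKX2-1, the lung lineage factor (CTCAAG), and the AP-1 site (TGANTCA), searched on both strands.
*Cldn18*, upstream start, chr9:99717268-99717517, minus strand: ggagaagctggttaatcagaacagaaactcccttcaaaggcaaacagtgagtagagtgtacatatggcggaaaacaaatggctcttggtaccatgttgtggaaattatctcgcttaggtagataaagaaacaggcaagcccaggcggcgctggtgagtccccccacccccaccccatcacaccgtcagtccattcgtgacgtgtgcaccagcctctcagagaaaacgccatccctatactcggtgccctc
*Cldn18*, downstream start, chr9:99710064-99710313, minus strand: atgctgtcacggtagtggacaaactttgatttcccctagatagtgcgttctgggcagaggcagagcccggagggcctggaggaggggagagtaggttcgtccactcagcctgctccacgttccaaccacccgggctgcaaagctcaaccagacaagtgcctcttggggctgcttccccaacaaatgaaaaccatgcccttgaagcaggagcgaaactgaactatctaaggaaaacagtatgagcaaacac
*Krt7*, chr15:101412153-101412402, plus strand: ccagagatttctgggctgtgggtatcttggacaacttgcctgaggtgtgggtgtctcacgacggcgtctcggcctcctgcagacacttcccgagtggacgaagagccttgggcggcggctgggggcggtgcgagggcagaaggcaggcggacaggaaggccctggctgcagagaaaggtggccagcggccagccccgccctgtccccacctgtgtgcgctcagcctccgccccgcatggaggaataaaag
*Sftpa1*, chr14:41131538-41131787, plus strand: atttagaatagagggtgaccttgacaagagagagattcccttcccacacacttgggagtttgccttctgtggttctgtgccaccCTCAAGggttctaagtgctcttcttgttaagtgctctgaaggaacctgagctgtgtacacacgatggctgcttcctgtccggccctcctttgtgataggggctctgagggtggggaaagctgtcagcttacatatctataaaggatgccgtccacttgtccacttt
*Sftpb*, chr6:72304360-72304609, plus strand: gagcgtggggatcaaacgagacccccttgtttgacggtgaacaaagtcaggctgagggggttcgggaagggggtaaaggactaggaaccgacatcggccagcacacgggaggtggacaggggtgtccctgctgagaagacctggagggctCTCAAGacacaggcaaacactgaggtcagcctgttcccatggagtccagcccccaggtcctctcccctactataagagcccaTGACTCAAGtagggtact

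Neither motif occurred in the windows of *Cldn18* or *Krt7*. The same held for many members that did not pass in the main test. These were *Krt8* and *Krt18*, and the AT2 members *Slc34a2*, *Cxcl15*, *Nkx2-1*, *Lpcat1*, *Lamp3*, *Etv5* and *Abca3*, among others. So the printed windows show no contrast between members that passed and members that did not. CTCAAG occurred 1 time before *Sftpa1* and 2 times before *Sftpb*, where the match nearer the start overlapped the single AP-1 match. Over the 32 windows of members 15.6% held CTCAAG and 9.38% TGANTCA, and over all 32851 windows 13.3% and 6.75% did. A match is a description of the letters and no evidence that a factor was bound.

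No AT2 or surfactant gene passed in limma or in SAM (significance analysis of microarrays, the test that the study's methods name), although *Etv5* was called lower under other settings. Of these 11 members, 3 were higher (27.3%, against 4.64% of all genes) and 1 lower (9.09%, against 6.9%) at an unadjusted p below 0.05. Their median difference was 0.04. *Sftpa1* and *Sftpd* encode the surfactant collectins SP-A and SP-D, and *Sftpb* and *Sftpc* the hydrophobic proteins SP-B and SP-C that spread the lipid film. *Sftpa1* had signals of 5.77 and 5.80 in TREM2-/- AM and 5.80 and 5.93 in WT AM (95% interval of the difference −0.27 to 0.11). For *Sftpb* they were 5.83 and 5.78 in TREM2-/- AM and 5.89 and 5.93 in WT AM (−0.28 to 0.08). Those of *Sftpd* were 5.32 and 5.13 in TREM2-/- AM and 5.27 and 4.88 in WT AM (−0.19 to 0.50). None of the 3 intervals reached above 0.50, the upper bound of *Sftpd*.

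*Sftpc*, the most AT2-restricted of the surfactant genes, had 5.55 and 5.48 in TREM2-/- AM and 5.21 and 4.94 in WT AM. Its arrays did not overlap, yet the difference of 0.44 (95% interval 0.19 to 0.70, adjusted p = 0.20 from limma) did not pass, and all 4 signals were below the middle of their arrays. *Nkx2-1*, encoding the transcription factor of the lung lineage, had 5.60 and 5.60 in TREM2-/- AM and 5.46 and 5.73 in WT AM. *Slc34a2*, the AT2 phosphate transporter, had 4.52 and 4.68 in TREM2-/- AM and 4.47 and 4.83 in WT AM. For these last genes the TREM2-/- values fell between those of WT AM. *Lamp3*, a lysosomal protein of lamellar bodies and of mature dendritic cells, and *Cxcl15*, the chemokine lungkine, lay below the lower quartile on all 4 arrays, at 3.41 to 3.93, where a difference may not be detectable.

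The brightest AT2 members were *Abca3*, *Lpcat1* and *Etv5*, the only 3 above the middle of all 4 arrays. *Abca3*, which loads phospholipid into lamellar bodies, had 8.996 and 8.942 in TREM2-/- AM and 8.958 and 8.897 in WT AM (95% interval of the difference −0.14 to 0.22). *Lpcat1*, the lysophosphatidylcholine acyltransferase of surfactant synthesis, had 8.72 and 8.63 in TREM2-/- AM and 8.40 and 8.51 in WT AM, a difference of 0.22 (adjusted p = 0.38 from limma). *Etv5*, an ETS factor that maintains AT2 cells, went the other way, with 6.36 and 6.21 in TREM2-/- AM and 7.02 and 6.80 in WT AM. Its difference was −0.63 (95% interval −0.88 to −0.37, adjusted p = 0.089 from limma), and it passed as lower with an intensity trend and robust variance (0.0033), the replicate block (0.033), a filter on a mean log2 of at least 6 (0.015) and the mean of probe sets (0.049), each an adjusted p from limma. The second probe set named *Etv5* differed by −0.73, with 5.55 and 5.41 in TREM2-/- AM and 6.25 and 6.16 in WT AM.

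Among the 7 AT1 genes 1 rose, *Gprc5a*, and none fell in limma (4 higher and 1 lower at an unadjusted p below 0.05, or 57.1% and 14.3%, against 4.64% and 6.9% of all genes, and 2 higher and none lower by SAM). None had overlapping arrays: 5 lay higher (71.4%, against 17.4% of all genes) and 2 lower (28.6%, against 25.4%) in TREM2-/- AM, and the median difference was 0.22. *Emp2*, a tetraspan membrane protein, had 6.60 and 6.32 in TREM2-/- AM and 5.66 and 5.95 in WT AM, a difference of 0.66 (adjusted p = 0.15 from limma) that SAM called. *Ager*, the receptor RAGE, which is abundant on AT1 cells, had 7.53 and 7.43 in TREM2-/- AM and 6.90 and 7.10 in WT AM, a difference of 0.48 (adjusted p = 0.14 from limma). *Hopx*, a homeodomain protein of AT1 cells, had 6.09 and 6.13 in TREM2-/- AM and 5.94 and 5.85 in WT AM (difference 0.22). The AT1 members with lower arrays in TREM2-/- AM were *Aqp5* and *Pdpn*. *Aqp5*, the water channel, had 6.83 and 6.78 in TREM2-/- AM and 7.02 and 6.86 in WT AM (difference −0.13). *Pdpn*, the membrane mucin podoplanin, had 7.93 and 7.83 in TREM2-/- AM and 8.40 and 8.28 in WT AM, a difference of −0.46 (adjusted p = 0.12 from limma).

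**Figure D2:**
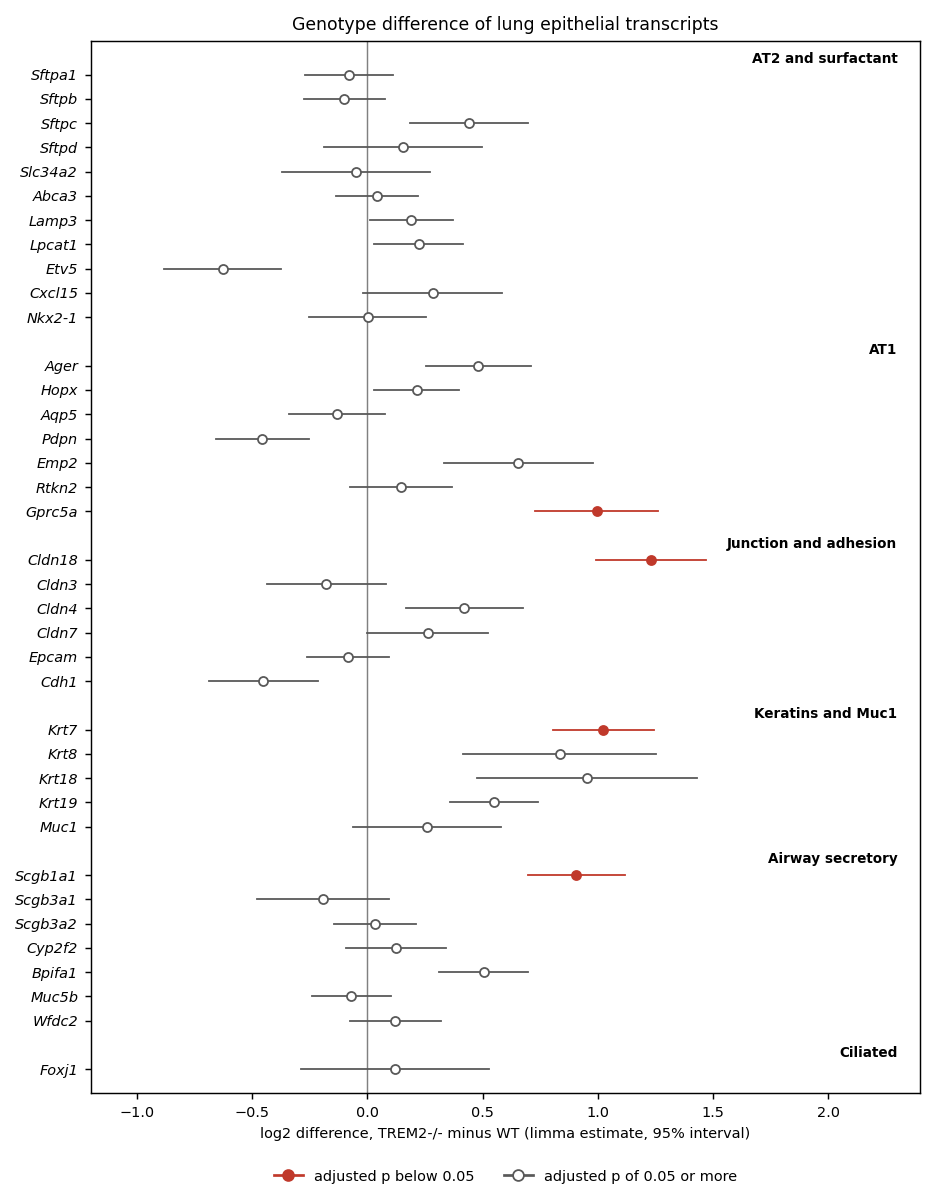
Log2 difference between TREM2-/- and WT AM (horizontal axis) for each epithelial transcript, with 2 arrays per genotype. Points are limma estimates and bars 95% intervals, not adjusted for the number of genes. Filled red points mark the 4 genes with an adjusted p below 0.05, at 0.91 to 1.23, and open points the other 33.

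The 4 keratins among the members shared a direction. These intermediate filament proteins pair a type II with a type I chain, *Krt8* with *Krt18* in simple epithelia, where *Krt7* and *Krt19* are also made. All 4 had both TREM2-/- arrays above both WT arrays, as 17.4% of all genes did. *Krt7* passed limma, and SAM called all 4 higher, where it called 0.887% of all genes higher. Keratins outside the members, named after their values were seen, did not share this. *Krt79*, listed as an AM marker, differed by −0.35, and the basal cell genes *Krt5*, *Krt14* and *Krt15* by −0.01, 0.21 and 0.03. *Krt8* had 8.35 and 8.17 in TREM2-/- AM and 7.69 and 7.17 in WT AM, a difference of 0.83 (standard error 0.17, adjusted p = 0.16 from limma). *Krt18* had 7.03 and 7.30 in TREM2-/- AM and 5.92 and 6.51 in WT AM, a difference of 0.95 (standard error 0.20, adjusted p = 0.16 from limma). For this pair the WT arrays stood apart from each other, with standard deviations of 0.37 and 0.41 log2 units (n = 2), and WT replicate 1 was higher for *Krt8* but lower for *Krt18*. *Krt19* had 8.29 and 8.25 in TREM2-/- AM and 7.78 and 7.66 in WT AM, a difference of 0.55 (standard error 0.08, adjusted p = 0.058 from limma). *Muc1*, the membrane mucin grouped with them, overlapped, at 5.63 and 5.37 in TREM2-/- AM and 5.38 and 5.09 in WT AM.

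The junction and adhesion genes were divided. Beside *Cldn18*, which rose, 5 of 6 did not pass in limma. *Cldn4* had 7.00 and 6.96 in TREM2-/- AM and 6.43 and 6.69 in WT AM, a difference of 0.42 (adjusted p = 0.22 from limma). *Cldn7* had 5.83 and 5.82 in TREM2-/- AM and 5.42 and 5.70 in WT AM, a difference of 0.26. *Cldn3* overlapped, with 6.79 and 6.59 in TREM2-/- AM and 6.77 and 6.97 in WT AM. So only 3 of these 4 claudins had higher arrays in TREM2-/- AM without overlap. *Epcam*, the pan-epithelial adhesion molecule, had 7.41 and 7.43 in TREM2-/- AM and 7.54 and 7.47 in WT AM (95% interval of the difference −0.26 to 0.09). *Cdh1*, encoding E-cadherin, had 7.97 and 8.12 in TREM2-/- AM and 8.59 and 8.40 in WT AM, a difference of −0.45 (95% interval −0.69 to −0.22, adjusted p = 0.16 from limma). The estimates for *Epcam* and *Cdh1* were thus below 0, unlike that of *Cldn18*, but the interval of *Epcam* included 0. That of *Cdh1* did not, yet this gene is also known from leukocytes. Of 24 other junction and identity genes, listed apart from the members, 14 differed above 0 and 10 below, with a median of 0.05. That list mixes junction genes with identity genes such as *Elf3* and *Foxa1*, so it does not show how junction genes alone moved.

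Of the 7 airway secretory genes, *Scgb1a1* rose and 6 did not pass in limma, with 2 higher (28.6%) and none lower both at an unadjusted p below 0.05 (4.64% of all genes) and by SAM (0.887%). The second gene was *Bpifa1*, encoding the airway surface protein SPLUNC1, with 7.45 and 7.41 in TREM2-/- AM and 6.98 and 6.87 in WT AM (difference 0.50, standard error 0.08, adjusted p = 0.076 from limma). The related secretoglobins did not pass. *Scgb3a1* had 6.11 and 5.79 in TREM2-/- AM and 6.09 and 6.19 in WT AM (95% interval of the difference −0.48 to 0.09). *Scgb3a2* had 4.23 and 4.18 in TREM2-/- AM and 4.20 and 4.15 in WT AM. All 4 were under the lower quartile, where a difference may not be detectable. *Cyp2f2*, the cytochrome P450 of club cells, had 6.33 and 6.13 in TREM2-/- AM and 6.11 and 6.10 in WT AM (−0.09 to 0.34). *Muc5b*, the gel-forming mucin, and *Wfdc2*, a secreted protease inhibitor, lay between 5.18 and 5.75 on all arrays and differed by −0.07 and 0.12. *Foxj1*, the ciliated cell factor, had 5.26 and 4.75 in TREM2-/- AM and 4.81 and 4.97 in WT AM, and its arrays overlapped.

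Other genes of the same epithelial cells, listed apart from the members, held no gene that passed the main limma test. In that test 0.431% of all genes were higher and 0.135% lower, shares at which a list of 98 genes may hold none. Of 98 measured genes, 12 were higher (12.2%, against 4.64% of all genes) and 4 lower (4.08%, against 6.9%) at an unadjusted p below 0.05. SAM called 3 higher (3.06%, against 0.887%) and none lower, and limma with an intensity trend and robust variance called 7 higher (7.14%, against 1.9%) and 1 lower (1.02%, against 1.45%). Their median difference was 0.00, with −0.02 over all genes, and both TREM2-/- arrays lay above both WT arrays for 22.4% (against 17.4%) and below them for 14.3% (against 25.4%). The 3 genes called by SAM, named here after their values were seen, were *Lyz1*, a lysozyme of AT2 cells and myeloid cells, with 10.72 and 10.68 in TREM2-/- AM and 9.79 and 10.15 in WT AM, *Vegfa*, the endothelial growth factor, with 6.46 and 6.44 in TREM2-/- AM and 5.86 and 6.01 in WT AM, and *Reg3g*, an antibacterial lectin, with 5.58 and 5.72 in TREM2-/- AM and 5.23 and 4.97 in WT AM. By subtype, the median difference was −0.01 for 15 other AT2 genes, 0.04 for 14 other AT1 genes, 0.05 for 24 other junction and identity genes, 0.05 for 19 other airway secretory and goblet genes, −0.01 for 19 other ciliated genes and 0.03 for 7 basal cell genes.

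Markers of cells that share the lung with the epithelium were examined in the same way. None of 12 endothelial and none of 12 mesenchymal markers passed in limma or SAM. At an unadjusted p below 0.05, 0 endothelial markers were higher and 2 lower (16.7%, against 6.9% of all genes). Of the mesenchymal markers, 1 was higher (8.33%, against 4.64%) and 0 lower. Both TREM2-/- arrays lay below both WT arrays for 7 endothelial markers (58.3%, against 25.4%) and above them for 1 (8.33%, against 17.4%). With an intensity trend and robust variance, *Vwf* passed as lower and *Fn1* as higher. The median differences were −0.16 for endothelial and −0.03 for mesenchymal markers. In contrast, 12 of 19 markers of interstitial or monocyte-derived macrophages rose in limma (63.2%, against 0.431% of all genes). None fell (against 0.135%), and the median difference was 0.79. Their mean log2 signal was 8.46 on both TREM2-/- arrays against 7.71 and 7.75 on the WT arrays. The mean over 17 AM markers was 10.92 and 10.87 in TREM2-/- AM against 10.80 and 10.81 in WT AM. Of these, 2 rose (11.8%, against 0.431% of all genes) and none fell. They were *Car4*, a carbonic anhydrase, by 0.90 and *Fabp1*, a fatty acid binding protein, by 0.74. The erythroid gene *Alas2* and *Alox15*, a lipoxygenase of eosinophils and resident macrophages, rose by 1.44 and 1.52, but they were the only genes of their lists to pass. The other 3 erythroid genes measured differed by −0.25 to 0.05, and the eosinophil genes *Ccr3*, *Epx* and *Prg2*, named after their values were seen, by −0.17, −0.01 and −0.01. The macrophage markers that rose moved between the same 4 arrays as the 4 epithelial genes, and their part in the result was not tested.

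**Figure D3:**
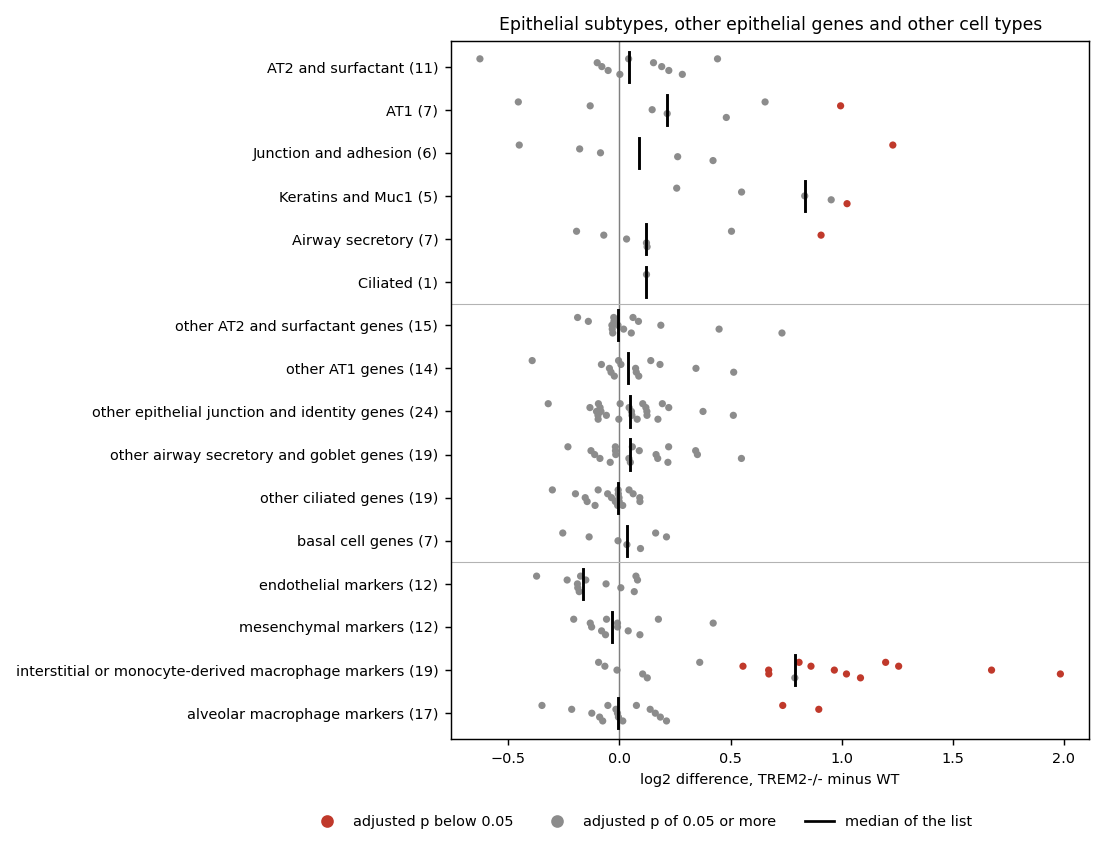
Log2 difference between TREM2-/- and WT AM (horizontal axis) for the members by epithelial subtype (top), other epithelial genes (middle) and markers of other cells (bottom), with the number of measured genes in brackets. Each point is a gene, red where its adjusted p in limma was below 0.05, and black bars are medians, 0.83 for keratins and *Muc1*, 0.04 for AT2 and surfactant genes, and 0.79 for interstitial or monocyte-derived macrophage markers.

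Within the members, 7 genes were listed as also known from leukocytes (*Lamp3*, *Pdpn*, *Cdh1*, *Lpcat1*, *Emp2*, *Krt18* and *Hopx*). The list was drawn up with earlier results known, and whether the other members are free of leukocyte expression was not tested. None of the 7 listed genes passed in limma. Of them, 5 were higher (71.4%, against 4.64% of all genes) and 2 lower (28.6%, against 6.9%) at an unadjusted p below 0.05, and SAM called *Emp2* and *Krt18* higher (28.6%, against 0.887%). Of the members, 3 lie on chromosome 17, which also carries *Trem2*. These were *Ager*, *Abca3* and *Epcam*, and none of them passed. Mean log2 signals by subtype were 7.36 and 7.34 in TREM2-/- AM against 6.68 and 6.58 in WT AM for keratins and *Muc1*, 6.60 and 6.58 against 6.32 and 6.31 for AT1 genes, 7.08 and 7.08 against 6.82 and 6.94 for junction and adhesion genes, 6.07 and 5.98 against 5.83 and 5.81 for airway secretory genes, and 5.82 and 5.81 against 5.79 and 5.75 for AT2 and surfactant genes. In each of these subtypes both TREM2-/- means lay above both WT means, by the least for AT2 and surfactant genes. Such a mean can follow a single gene. Of the junction and adhesion genes, 3 differed above 0 and 3 below, with a median of 0.09 against 1.23 for *Cldn18*. The median was 0.12 for airway secretory genes, against 0.91 for *Scgb1a1*. The difference between subtypes was not tested, since 5 to 11 genes measured on the same 4 arrays are not replicates.

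How many members passed depended on how the spread between the arrays was estimated. SAM at a false-discovery rate of 5% called 9 of 37 (24.3%) higher and none lower, where it called 0.887% of all genes higher and 0.0953% lower. They were the 4 genes above with *Krt8*, *Krt18*, *Krt19*, *Emp2* and *Bpifa1*. In limma with an intensity trend and robust variance, 11 members (29.7%) were higher, the genes of SAM with *Ager* and *Cldn4*, and 3 (8.11%) lower, *Etv5*, *Pdpn* and *Cdh1*. In that fit 1.9% of all genes were higher and 1.45% lower. These 3 tests share the same mean differences, so they can differ only in which genes pass, and no surfactant protein gene was called by any of them.

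**Figure D4:**
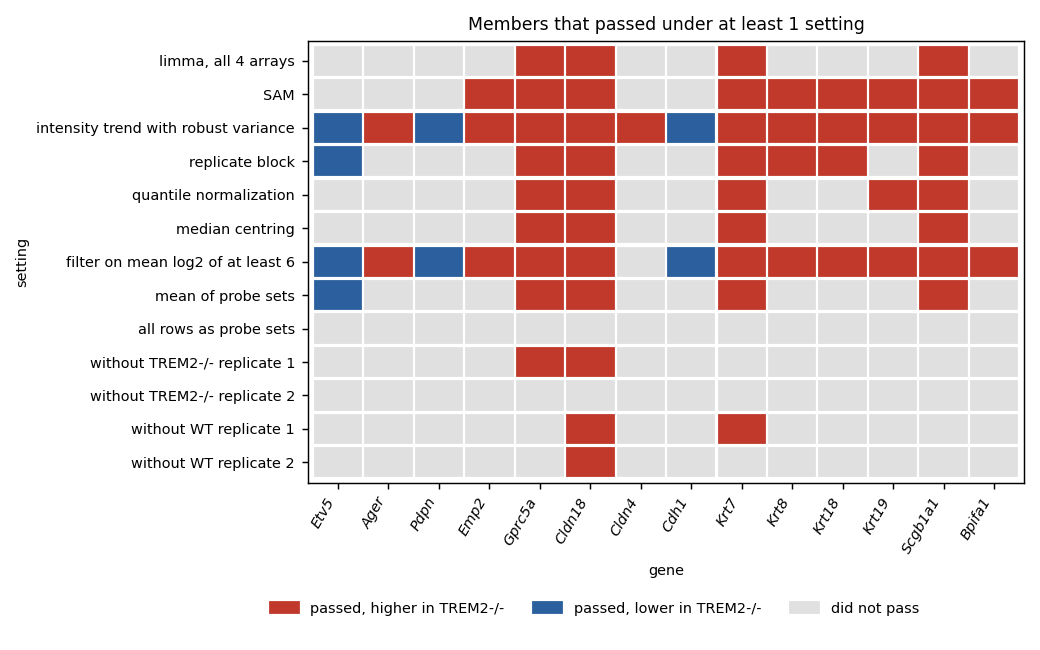
Members (horizontal axis) that passed under at least 1 setting of the analysis (vertical axis). Red marks a gene that passed as higher and blue one that passed as lower in TREM2-/- AM, and grey one that did not pass. *Cldn18* passed in 3 of the 4 fits that left out 1 array, and *Etv5*, *Pdpn* and *Cdh1* are the 3 genes in blue.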

How the data were processed

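RNA from pools of mice was measured on Affymetrix mouse gene arrays. The deposited log2 values, 1 per probe set, come from RMA normalization that the authors ran over their arrays. In the submitters' processing notes RMA has no version and the build is mm9. Scanner intensities were not analysed here. Of 35557 rows, 21797 have 1 symbol in the platform annotation, 1613 several and 12147 are unnamed here. Symbols were updated through RefSeq gene identifiers (21706 matched). Where a gene had more than 1 probe set (999 genes), the brightest on average was kept, without a filter on low values.

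The main test was limma (3.58.1, lmFit with eBayes, under R 4.3.3) of genotype alone, with two-sided p-values adjusted by Benjamini-Hochberg over 19946 genes. An exact permutation test of 2 against 2 arrays cannot give a p below 0.333. SAM was run from code written here with all 6 assignments of the arrays. Both were tested on simulated data. The alternatives comprised SAM, a robust fit with an intensity trend, the replicate block, quantile normalization, median centring, a filter on a mean log2 of at least 6, the mean of probe sets, all rows as probe sets and leaving out each array. Members, gene lists and the rule for named genes (members that passed, the given markers *Cldn18*, *Krt7* and *Scgb1a1*, the defining genes and 3 largest differences of each subtype, and up to 4 called genes of other lists) were chosen with earlier results of these data known, and the rest are given by values or ranges, except for 1 AT1 gene whose values are not reported here. Leukocyte and erythroid marker lists were run too. Called higher by limma were 0 of 10 for T, NK and B cells, 1 of 14 for neutrophils and eosinophils, and 1 of 4 for erythroid cells. None was called lower, where 0.431% of all genes were higher and 0.135% lower, so counts from lists this short say little. Pearson's r between arrays was 0.992 to 0.995.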

Additional observations from a re-analysis of the deposited data

How the results depend on the processing

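The 4 higher members became 9 with SAM, 11 with an intensity trend and robust variance and 10 with a filter on a mean log2 of at least 6, which tested 22 members. *Gprc5a*, *Emp2* and *Hopx*, with WT means of 5.88, 5.81 and 5.90, were kept by the filter only through their TREM2-/- signals, and *Hopx* was not called. The higher members became 0 with all rows as probe sets (adjusted p 0.15 to 0.25 for the 4 genes in limma), where limma both estimated variances and adjusted p-values over 35557 rows. They numbered 0 to 2 with 1 array left out. The 0 lower members became 3 with the trend and 3 with the filter (*Etv5*, *Pdpn* and *Cdh1*), and 1 (*Etv5*) with the replicate block and 1 (*Etv5*) with the mean of probe sets, and stayed at 0 with 1 array left out, where the lone array of a genotype was assumed to vary like the other genotype. All 4 higher members were kept under SAM, the trend, the replicate block (6 higher), quantile normalization (5), median centring (4) and the mean of probe sets (4). The replicate numbers did not show a pairing: deviations of same-numbered arrays correlated at −0.05 over 19946 genes, with only 2 pairs. With 1 array left out, the sign turned for 4 members near 0, whose differences then ran from −0.038 to 0.35 for *Sftpd*, −0.23 to 0.13 for *Slc34a2*, −0.13 to 0.14 for *Nkx2-1* and −0.14 to 0.37 for *Foxj1*. In quantile normalization, median centring and the mean of probe sets no member changed its sign. With 2 arrays per genotype the precision is low, and 3 members lay below the lower quartile of all 4 arrays (*Lamp3*, *Cxcl15* and *Scgb3a2*), where differences may be understated.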
